A study of Mus musculus with 12 samples.

Results

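The Ighd2 genes, also called the DSP2 family, are D segments of the mouse heavy chain locus, and they were followed here through the tyrosine-rich peptides that they encode in one of their reading frames. A CDR3, the loop of the antibody heavy chain that spans the V-D-J junction, was counted as an Ighd2 CDR3 when it held YSNY (Ighd2-5), YGNY (Ighd2-1), YDGY (Ighd2-3), YDYD (Ighd2-4) or YGYD (Ighd2-2) and did not hold YGSS, a motif of Ighd1-1. A CDR3 was read from the residue after the V segment cysteine up to the J segment tryptophan. Of 546610 CDR3s found in 605278 unique translations, 49970 were Ighd2 CDR3s, or 9.14%. Among them 49611 held 1 motif and 359 held 2, and only 1 CDR3 was set aside for YGSS. The motif names a gene by its peptide and not by alignment to a germline sequence, so copies of the family with the same bases cannot be told apart. Any family member with another peptide would be counted among the other CDR3s.

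The data were heavy chain cDNA amplicons of splenic B cells from female *MRL-lpr* mice, a strain homozygous for the Fas lpr mutation that develops a lupus-like disease, all 14 weeks old. Mice received a splice-modulating oligomer (SMO) through a minipump under the skin. In one group, of 6 libraries, this was a control SMO, and in the other group, of 6 libraries, it was LFPRLR SMO, which blocks the splicing that yields the long isoform of the prolactin receptor (LFPRLR). PCR ran from a J558 V primer to the IgM constant region, so other V families and switched isotypes were not sampled, and B-cell identity could not be checked from an amplicon of 1 gene.

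The libraries held between 29184 and 67724 CDR3s, with the exception of LFPRLR SMO replicate 6, which held 493 and only 55 Ighd2 CDR3s. Of the 50 most-read Ighd2 CDR3s of each library, 33 were shared by Control SMO replicates 4 and 8, 31 by Control SMO replicates 5 and 7, 23 by LFPRLR SMO replicates 4 and 5, and 17 by LFPRLR SMO replicates 3 and 4. The next pair, Control SMO replicate 8 and LFPRLR SMO replicate 6, shared 9. Whether the libraries that share sequences came from separate mice was not tested, so n counts libraries and p-values treat them as separate samples. Control SMO replicates 4, 7 and 9 and LFPRLR SMO replicates 3, 4 and 7 also carried a second amplicon end in 31.9% to 39.7% of their sequences, against at most 2.22% in the others. Each of these library sets held 3 libraries per group. Where sharing libraries are said to be averaged, the first 3 pairs were each averaged, which left LFPRLR SMO replicate 3 as a sample of its own.

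During B-cell development a D segment is joined first to a J and then to a V segment, with bases trimmed and added at both joints. A D segment can be read in any of 3 frames. The frame of the Ighd2 genes that encodes tyrosine, glycine, serine, asparagine and aspartate is known as the one that predominates in mouse antibodies, whereas another frame encodes hydrophobic residues and the remaining one often holds stop codons.

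The bases behind each motif are described by the stretch over which most CDR3s with the motif shared the same base. It is given here 5′ to 3′, with the 12 bases of the motif in capitals.
YSNY, Ighd2-5: tacTATAGTAACTACg
YGNY, Ighd2-1: acTATGGTAACTACg
YDGY, Ighd2-3: cTATGATGGTTACtac
YDYD, Ighd2-4: acTATGATTACGACg
These stretches rest on 12325, 6885, 6567 and 4195 different CDR3 nucleotide sequences, in that order. Each lower-case base was the commonest one in at least 50% of them. Whether these outer bases belong to the D segment or to its joints was not tested. The cores of YSNY and YGNY differed by 1 base, written A4G, where the first letter is the YSNY base and positions count from 1 at the first capital. The cores of YDYD and YGNY differed by 3 bases, A5G, T7A and G10T.

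Most CDR3s with a given motif used a single coding of it. The commonest 12 bases made up 96.8% of 7544 unique nucleotide sequences with YDYD, 92.7% of 24157 with YSNY, 91.8% of 15154 with YGNY and 81.8% of 12538 with YDGY. The second coding of YSNY and of YGNY changed only the last base, C12T, and made up 5.79% and 4.95% of them. YDGY was the most mixed of these, since 9.83% of its sequences lay 3 or more bases from the commonest coding. In 15.7% of these 1233 distant sequences the motif followed YR, against 0.107% of the 10256 with the commonest coding.

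YGYD, the peptide of Ighd2-2, had no leading code. Its commonest coding held 27 of 166 sequences, and the next held 26.
YGYD, commonest coding: TACGGCTACGAT
YGYD, second coding: TATGGTTACGAC
The second coding differed from the YDYD core by 1 change, A5G, and the commonest by 4. In all, 18 codings were found, and 28.9% of the sequences lay 3 or more bases from the commonest one. YGYD was found in 151 of the 546610 CDR3s. Whether the mice carry an Ighd2-2 gene, and which of these codings would be that of the gene, was not tested.

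**Figure D1:**
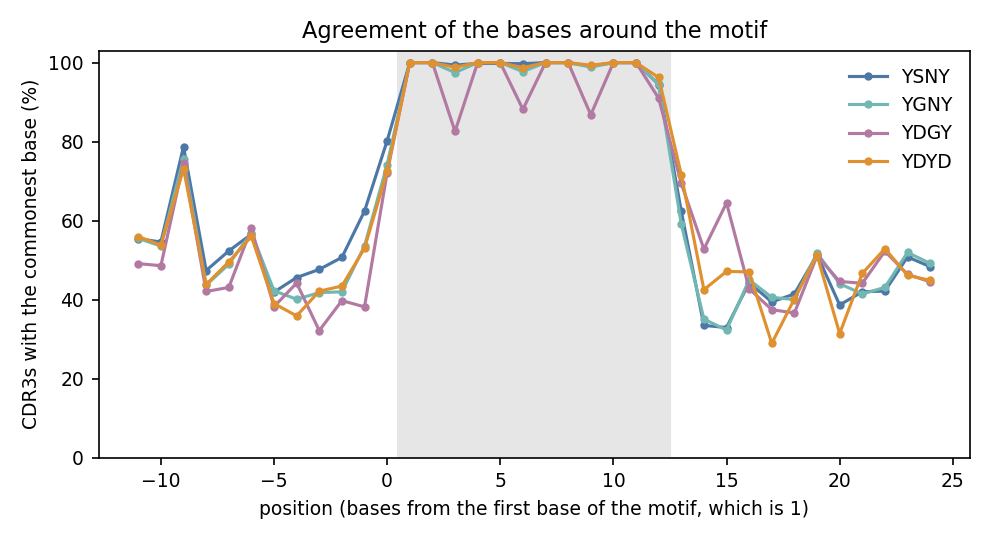
Percentage of different CDR3 nucleotide sequences that have the commonest base at each position, for the 4 frequent motifs, with the motif shaded and its first base at 1. The first and second codon bases inside the motif are largely fixed by the peptide, so the third bases (positions 3, 6, 9 and 12) and the flanks carry the information; the base just before the motif agreed in 72.2% to 80.2% of CDR3s and the base just after it in 59.1% to 71.7%.

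The 5 motifs differed widely in frequency, and their order was nearly the same in each library. YSNY was the commonest, at 3.94% ± 0.64 of CDR3s (mean ± SD over 12 libraries), with a lowest value of 3.37%, a median of 3.69% and a highest of 5.68%. YGNY followed at 2.35% ± 0.27, with a range of 1.96% to 2.81%. YDGY made up 1.95% ± 0.31 and ranged from 1.58% to 2.60%. YDYD made up 1.16% ± 0.22 and ranged from 0.761% to 1.41%, and YGYD made up 0.0250% ± 0.0168. YSNY alone thus provided a median of 41.5% of the Ighd2 CDR3s, YGNY 24.6%, YDGY 20.3% and YDYD 12.1%.

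Of the 10 pairs of motifs, 9 had the same order in all 12 libraries. The exception was the pair of YGNY and YDGY, where YGNY exceeded YDGY in 11 of 12 libraries, by 0.392 ± 0.324 percentage points. In the remaining library, Control SMO replicate 8, they differed by -0.00174 percentage points, so the order of these neighbours did not hold in each library. In LFPRLR SMO replicate 6 YGYD was found in 0 of 493 CDR3s, which allows a share of up to 0.609%.

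**Figure D2:**
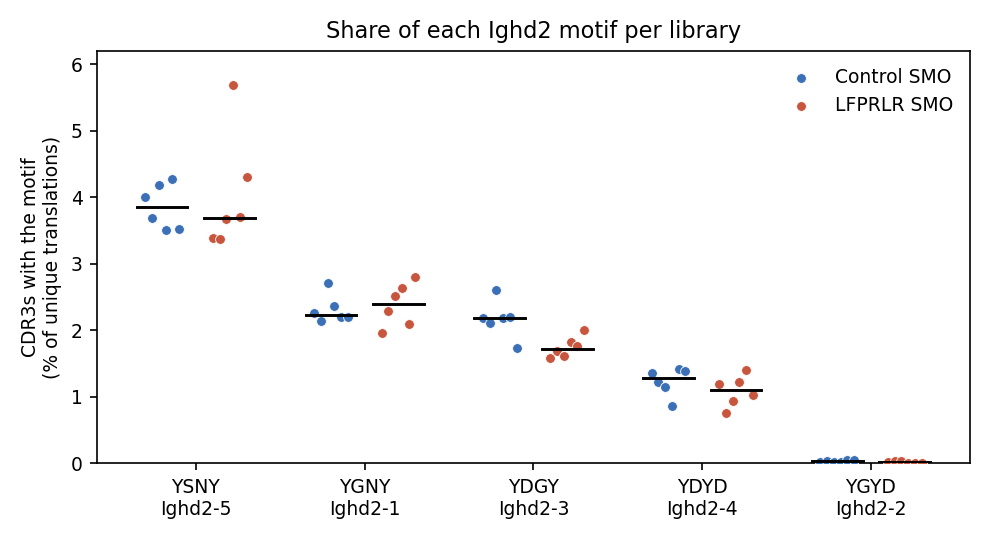
Share of unique translations whose CDR3 holds each Ighd2 motif, 1 point per library (6 control SMO in blue, 6 LFPRLR SMO in red), with bars at the medians. The order YSNY, YGNY, YDGY, YDYD, YGYD shows in both groups; the highest YSNY point, at 5.68%, is LFPRLR SMO replicate 6, and YDGY is lower in the LFPRLR SMO points, with 1 control point among them.

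The reading frame of the D core was almost fixed in joints with V and J in frame. Where V and J were in frame, 54878 unique nucleotide sequences held a core, and 98.9% of them were read in the tyrosine frame, 0.452% in the hydrophobic frame and 0.661% in the stop frame. By motif the tyrosine frame took 99.3% for YGNY, 99.1% for YSNY, 98.4% for YDYD and 98.2% for YDGY, and its lowest value in a library with at least 20 such sequences was 96.4%. The hydrophobic frame took between 0.276% (YGNY) and 0.842% (YDYD). The peptides of that frame were scarce among all CDR3s, with MVTT in 0.0310% ± 0.0220 of CDR3s, IVTT in 0.0172% ± 0.0142 and MITT in 0.00829% ± 0.00626 (mean ± SD, 12 libraries).

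Where V and J were out of frame, the cores were spread over the 3 frames. There, 1843 sequences held a core, of which 30.1% were in the tyrosine frame, 43.2% in the hydrophobic frame and 26.6% in the stop frame. Over the 11 libraries that held 20 or more of these, the tyrosine share lay between 20.1% and 39.4%, so it did not overlap the in-frame values. Among sequences read at least 2 times the shares were 31.1%, 45.3% and 23.6% of 437. Out-of-frame joints were 3.18% of all sequences with a V end and a J start, and base insertions or deletions from PCR or sequencing were not separated from them. The tyrosine-frame share of in-frame cores had a median of 98.9% in control SMO mice and 99.0% in LFPRLR SMO mice (exact Mann–Whitney *U* test, two-sided, p = 0.31, n = 6 and 6).

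**Figure D3:**
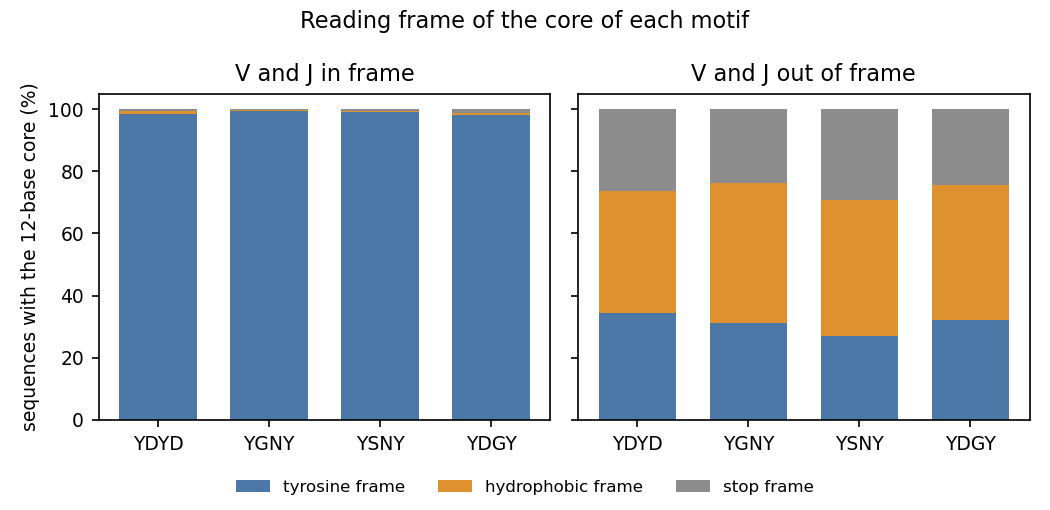
Percentage of unique nucleotide sequences with the 12-base core of each motif that read it in the tyrosine, hydrophobic or stop frame, pooled over 12 libraries, for joints with V and J in frame (left) and out of frame (right). In-frame bars are filled by the tyrosine frame (98.2% to 99.3%), and out-of-frame bars are split, with 26.9% to 34.5% in the tyrosine frame.

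J partners differed between the motifs. J segments supply the end of the CDR3, and the 4 mouse J segments were told apart by the residues after the J tryptophan. CDR3s with none of the 5 motifs were taken over the 11 libraries other than LFPRLR SMO replicate 6. They used J1 in 9.25% ± 0.68, J2 in 32.5% ± 2.0, J3 in 28.7% ± 1.3 and J4 in 29.4% ± 2.6 (mean ± SD).

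YDYD stood out by J3. In these 11 libraries J3 was used by 32.2% of YDYD CDR3s at the lowest, 45.5% at the median and 49.6% at the highest, and the lowest of these values exceeded the J3 share of the other CDR3s in each of the 11 libraries. Over all 12 libraries the J3 share of YDYD CDR3s exceeded that of CDR3s without YDYD by 16.4 ± 9.5 percentage points and was higher in 12 of 12 (exact sign-flip test, adjusted p = 0.00115 over all 4-residue motifs and J segments). J2 was used less by YDYD CDR3s in 12 of 12 libraries, by a mean difference of -10.1 ± 8.3 points (exact sign-flip test, adjusted p = 0.00115). Their J1 and J4 shares were also lower, by -2.93 and -3.35 points (adjusted p = 0.0128 and 0.0102, same exact test). The YDYD CDR3 found in the most libraries had a J3 end.

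YSNY and YGNY, whose cores differ by 1 base, both used J3 less and J4 more. J3 was used less by YSNY CDR3s in 12 of 12 libraries, with a mean difference of -5.76 ± 5.83 points (adjusted p = 0.00115, exact sign-flip test), and less by YGNY CDR3s in 11 of 12, with -5.98 ± 5.48 points (adjusted p = 0.00848, same exact test). J4 was used more by YSNY CDR3s in 12 of 12 libraries, by 4.70 ± 2.78 points (adjusted p = 0.00115, exact test), and more by YGNY CDR3s in 11 of 12, by 7.56 ± 6.92 points (adjusted p = 0.00211, exact test). YDGY CDR3s used J2 more, by 3.10 ± 3.75 points (10 of 12 libraries, adjusted p = 0.0177, exact test), and J4 less, by -3.18 ± 4.97 points (11 of 12, adjusted p = 0.0145, exact test).

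These counts are to be read against a high background. Of 772 combinations of a 4-residue motif and a J segment tested in the same way by an exact sign-flip test, 465 passed the adjusted threshold, or 60.2%. Motifs from the J end of the CDR3, such as AMDY of J4, are among them. Their J use is set by their own sequence, so the share is not one for D motifs alone. Of the 16 combinations of the 4 frequent Ighd2 motifs, 10 passed. When each CDR3 and J was counted once per library, the YDYD differences were 15.1 points for J3 and -9.25 points for J2. Weighted by reads, the J4 differences of YSNY and YGNY no longer passed, at 5.43 and 11.7 points (adjusted p = 0.0799 and 0.0931, exact test). Nor did the J4 difference of YDYD and the J2 and J4 differences of YDGY (adjusted p = 0.704, 0.115 and 0.0823, exact test). With at least 2 reads, the J4 differences of YSNY, YGNY and YDYD and the J2 difference of YDGY did not pass (adjusted p = 0.383, 0.237, 0.0975 and 0.125, exact test). With the sharing libraries averaged, the J2 and J4 differences of YDGY and the J1 difference of YDYD no longer passed (adjusted p = 0.11, 0.0864 and 0.0553, exact test). When LFPRLR SMO replicate 6 was also left out, those of YDGY and the J4 difference of YDYD did not pass (adjusted p = 0.192, 0.151 and 0.0644, exact test). Within the library sets, with the second amplicon end first, the J3 difference of YDYD was 16.7 and 16.1 points, the J4 difference of YSNY 5.58 and 3.81 points and that of YGNY 9.35 and 5.77 points. The first of these was positive in 6 of 6 libraries of both sets, as was that of YSNY, and that of YGNY in 6 of 6 and 5 of 6.

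The J4 share also differed between codings of 1 motif. YSNY sequences with the second coding (C12T) had J4 in 76.1% of 1399, whereas the commonest coding had J4 in 31.1% of 22404. For YGNY the same values were 72.9% of 750 and 35.3% of 13912. Restricted to the commonest coding, the J4 difference of YSNY was 1.66 ± 3.31 points (7 of 12 libraries, exact sign-flip test, unadjusted p = 0.11) and that of YGNY 6.01 ± 10.08 points (9 of 12, unadjusted p = 0.0361, exact test). The YDYD and J3 difference was 17.8 ± 10.1 points under the same restriction, higher in 12 of 12 libraries (unadjusted p = 0.000488, exact test, the smallest that it can give). For YDGY the restricted J3 difference was 3.70 ± 3.19 points, higher in 11 of 12 libraries (unadjusted p = 0.00146, exact test). Over all codings, in unique translations, it was -0.946 points. The restricted J2 and J4 differences of YDGY were 5.78 ± 6.39 and -6.67 ± 4.09 points (unadjusted p = 0.00781 and 0.00146, exact test). This restriction was chosen after the values were seen. The last codon of a motif can include bases of the J segment, so holding a motif and using a J are not independent. The restriction does not remove this, and its part in the J differences was not tested.

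**Figure D4:**
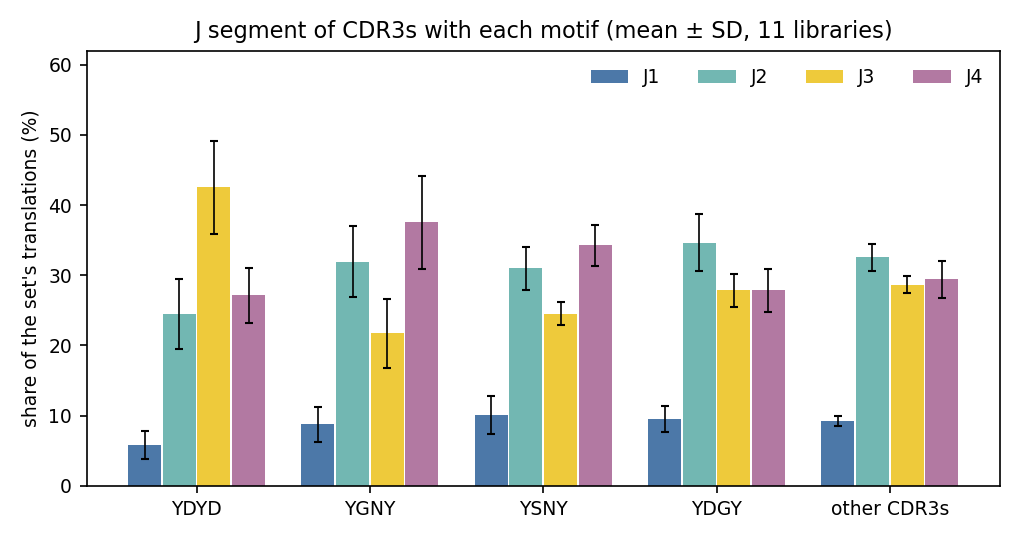
Percentage of unique translations with each J segment, for CDR3s with YDYD, YGNY, YSNY or YDGY and CDR3s with none of the 5 motifs. Bars are means and lines SD over 11 libraries, without LFPRLR SMO replicate 6. J3 leads in YDYD CDR3s at 42.5%, J4 leads in YGNY and YSNY CDR3s at 37.5% and 34.3%, and J2 leads in YDGY CDR3s at 34.6% and in the other CDR3s at 32.5%.

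As these shifts ran in opposite directions, the family as a whole differed less from other CDR3s. Ighd2 CDR3s used J4 in 32.3% ± 3.3 against 29.3% ± 2.5 of other CDR3s, higher in 9 of 12 libraries (exact sign-flip test, p = 0.00732, adjusted p = 0.0166 over the 4 J). They used J3 in 26.4% ± 3.2 against 28.5% ± 1.4, higher in 2 of 12 libraries (exact sign-flip test, adjusted p = 0.0166). In the libraries with the second amplicon end the J4 difference was 4.10 ± 2.25 points and positive in 6 of 6, and in the others it was 1.79 ± 3.67 points and positive in 3 of 6. With the libraries that share sequences averaged, the adjusted p of both J3 and J4 was 0.0781. As for the single motifs, the last codon of a motif can include J bases, so being an Ighd2 CDR3 and using a J are not independent. The part of this in the family differences was not tested. No difference passed the test for J1 (adjusted p = 0.869) or J2 (adjusted p = 0.299) in the exact sign-flip test.

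Ighd2 CDR3s were longer than the rest. Their mean length was 12.7 ± 0.2 residues against 10.9 ± 0.3 for other CDR3s, a difference of 1.78 ± 0.21 residues that was positive in 12 of 12 libraries (exact sign-flip test, p = 0.000488). CDR3s that hold a given stretch of 4 residues tend to be longer, and over 193 such motifs the median difference was 1.12 residues, with a larger difference than that of the family for 20.7% of them. For 122 of these motifs, or 63.2%, the difference was positive in every library, so that trait is not particular to the family. YDYD CDR3s were the longest, with 13.2 ± 0.5 residues over 11 libraries, followed by YSNY with 12.7 ± 0.2, YDGY with 12.7 ± 0.3 and YGNY with 12.5 ± 0.2. YDYD was followed by 5.21 ± 0.22 residues, against 4.68 ± 0.26 after YGNY, while 3.80 to 3.95 residues on average preceded each of these motifs.

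A tyrosine stood directly ahead of the motif in some Ighd2 CDR3s, and whether the D segment encoded it was not tested. It was present in 46.2% ± 3.7 of YSNY CDR3s, 37.7% ± 7.2 of YDYD CDR3s and 34.4% ± 5.2 of YGNY CDR3s, but in 4.21% ± 2.09 of YDGY CDR3s. Arginine, which is frequent in DNA-binding antibodies, was found after the second residue of the CDR3 in a median of 16.1% of Ighd2 CDR3s and 28.4% of other CDR3s, lower in 12 of 12 libraries. Since the motif itself sets 4 residues that are not arginine, this is given as a description. The mean length of Ighd2 CDR3s did not pass the test between groups (median 12.6 residues in control SMO mice and 12.7 in LFPRLR SMO mice, exact Mann–Whitney *U* test, p = 0.937).

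The share of Ighd2 CDR3s was compared between groups to ask whether the treatment went with another use of this D family. In control SMO mice the lowest value was 8.80%, the median 9.42% and the highest 10.6%. In LFPRLR SMO mice the lowest was 8.09%, the median 8.80% and the highest 11.2%, so the groups overlapped over most of their range. The difference in medians of -0.617 percentage points did not pass an exact Mann–Whitney *U* test (two-sided, p = 0.485, where 0.00216 is the smallest that 6 against 6 allows). The highest value was that of LFPRLR SMO replicate 6, where 55 of 493 CDR3s gave a 95% Wilson interval of 8.67% to 14.2%, which covers counting error only. Shares in the libraries with the second amplicon end (8.09% to 9.09%) lay below most of those in the others (8.69% to 11.2%), and within these sets the exact p values were 0.4 and 1. Only when translations with 1 read were left out did the difference pass, at -0.975 points (exact test, p = 0.026).

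Of the 4 frequent motifs, YDGY was the one with the largest difference between groups. Its share in control SMO mice was 1.73% at the lowest, 2.18% at the median and 2.60% at the highest. In LFPRLR SMO mice it was 1.58%, 1.72% and 2.00%. All 6 LFPRLR SMO libraries lay below the control median, and 1 control library, replicate 9, lay among them. The exact Mann–Whitney *U* test gave p = 0.0152, and the adjusted p over all 193 motifs was 0.456, so it failed the correction. With an unadjusted p under 0.05, 15 of the 193 motifs passed, or 7.77%, and 1 of the 4 Ighd2 motifs did. After adjustment 0 of the 193 passed, or 0%, in the Mann–Whitney test as in edgeR (24 unadjusted) and DESeq2 (20 unadjusted). The edgeR log2 fold change of YDGY was -0.26 (adjusted p = 0.233) and that of DESeq2 -0.28 (adjusted p = 0.201).

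Sequences with the commonest YDGY coding, that of Ighd2-3, had a share of 1.69% at the median in control SMO mice and 1.29% in LFPRLR SMO mice (exact Mann–Whitney *U* test, unadjusted p = 0.00433). Codings 3 or more bases away had 0.193% and 0.161% (exact test, unadjusted p = 0.589), and the difference between these codings was not tested. This split was chosen after the values were seen. Within the library sets the YDGY difference was -0.418 and -0.366 percentage points. With the sharing libraries averaged, which left 4 against 5 samples, the unadjusted exact p was 0.111.

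The other motifs overlapped between the groups. The median YSNY share was 3.84% for control SMO mice and 3.68% for LFPRLR SMO mice (exact Mann–Whitney *U* test, p = 0.937, adjusted p = 0.994). YGNY had 2.23% and 2.40% (exact test, p = 0.818, adjusted p = 0.969), and YDYD had 1.28% and 1.11% (exact test, p = 0.394, adjusted p = 0.826). YGYD, too rare for the table of motifs tested, had medians of 0.0320% and 0.0125%.

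J1 was used more by Ighd2 CDR3s of LFPRLR SMO mice. Its share among them was 7.16% at the lowest, 8.13% at the median and 9.97% at the highest in control SMO mice, and 8.38%, 10.5% and 16.4% in LFPRLR SMO mice. All 6 LFPRLR SMO libraries exceeded the control median, and control replicate 3, with the highest control value, exceeded LFPRLR SMO replicates 3 and 7. The exact Mann–Whitney *U* test gave p = 0.00866 and an adjusted p of 0.0346 over the 4 J segments. In each library set the groups did not overlap, with differences of 1.91 and 2.43 points (exact p = 0.1 in each, the smallest that 3 against 3 allows).

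The call did not hold under several alternatives. With each CDR3 and J counted once, the J1 difference was 0.664 points (adjusted p = 0.26, exact test), and with the sharing libraries averaged it was 2.11 points (adjusted p = 0.127, exact test). With 4 against 5 samples, however, a single J at its smallest exact p reaches an adjusted p of only 0.0635, so averaging was too small a design to test J1 alone. Leaving out any 1 of Control SMO replicates 4, 5, 7, 8 and 9 or LFPRLR SMO replicates 4, 5, 6 and 8 also ended it, with adjusted p up to 0.0693 and differences of 2.12 to 2.57 points. The largest value, 16.4%, was that of LFPRLR SMO replicate 6 with its 55 Ighd2 CDR3s. In the other CDR3s the J1 medians were 9.68% and 9.09% (exact test, p = 0.31), and the gap between Ighd2 and other CDR3s was -1.54 points in control SMO and 1.94 points in LFPRLR SMO mice (exact test, p = 0.0152, adjusted p = 0.0606). This last comparison was added after the values were seen.

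By motif, the J1 difference was largest in YSNY CDR3s, where the median was 7.68% for control SMO mice and 13.1% for LFPRLR SMO mice (exact Mann–Whitney *U* test, p = 0.00866, adjusted p = 0.329). YGNY, YDGY and YDYD had J1 medians of 8.11% and 8.17%, 9.34% and 9.15%, and 6.89% and 5.50%, with control SMO first. Of 760 combinations of motif and J segment compared between groups, 0% passed after adjustment. J2, J3 and J4 among Ighd2 CDR3s did not pass (adjusted p = 0.937, 0.646 and 0.186, exact tests), and the median J4 share was 34.0% for control SMO mice and 30.4% for LFPRLR SMO mice.

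**Figure D5:**
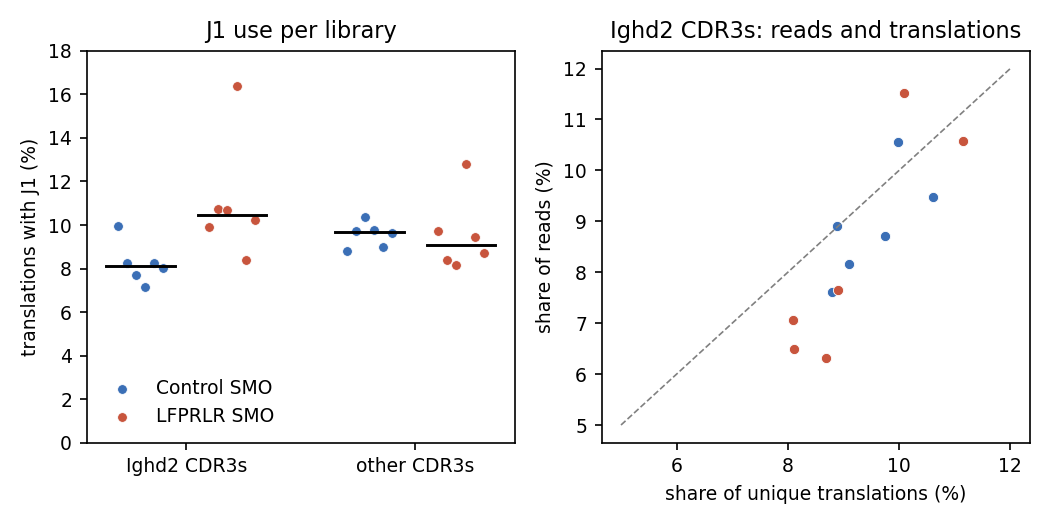
Left, percentage of unique translations with J1 among Ighd2 CDR3s and other CDR3s, 1 point per library (control SMO blue, LFPRLR SMO red), with bars at the medians (8.13% and 10.5%, then 9.68% and 9.09%). Right, share of reads against share of unique translations held by Ighd2 CDR3s per library, with the dashed line at equal shares; 9 of 12 libraries lie below the line.

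Ighd2 CDR3s held a smaller share of reads than of unique translations. The read share lay below the translation share in 9 of 12 libraries, by -0.759 ± 1.017 percentage points (exact sign-flip test, p = 0.0273). The lowest gap was -2.38 points, in LFPRLR SMO replicate 5, and the highest 1.43 points, in LFPRLR SMO replicate 8. Without LFPRLR SMO replicate 4 or without replicate 5 the exact p was 0.0527 or 0.0547, and with sharing libraries averaged it was 0.0625. The medians of this gap were -0.978 points in control SMO and -1.15 points in LFPRLR SMO mice (exact Mann–Whitney *U* test, p = 0.394).

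The 3 libraries with a higher read share, Control SMO replicates 7 and 8 and LFPRLR SMO replicate 8, were among the 4 with an expanded Ighd2 CDR3. The exception was Control SMO replicate 5, whose gap was -1.13 points. The commonest Ighd2 CDR3 took 29.7% of the Ighd2 reads in LFPRLR SMO replicate 8, 22.9% in Control SMO replicate 8, 19.1% in Control SMO replicate 5 and 18.5% in Control SMO replicate 7. In each of the other 8 libraries it took at most 7.16%. The CDR3s that reached 1% of the located reads of a library are shown with the codons of their motif in capitals. They were picked by their values.
YGNY with a J2 end, 3.42% of reads in LFPRLR SMO replicate 8: gcaagaggccttTATGGTAACTACgactac
YSNY with a J2 end, 2.42% of reads in Control SMO replicate 8: gtttcctacTATAGTAACTACggctac
YGNY with a J4 end, 1.81% of reads in Control SMO replicate 5: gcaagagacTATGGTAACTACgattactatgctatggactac
YDGY with a J2 end, 1.61% of reads in Control SMO replicate 5: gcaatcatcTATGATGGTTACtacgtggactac
The last 2 of these were also frequent in Control SMO replicate 7, at 1.65% and 1.19% of its reads, and lay between 0.000865% and 0.208% in the other libraries where they were found. The first 2 lay at 0.705% each in LFPRLR SMO replicate 6, a library of 627 reads, and at most at 0.0275% in the remaining libraries. In all 4 the motif was coded by the commonest 12 bases.

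Some Ighd2 CDR3s recurred across libraries. The CDR3 of each motif found in the most libraries is given with its commonest nucleotide form, to show what the shared ones look like.
YSNY, J1 end, 12 libraries: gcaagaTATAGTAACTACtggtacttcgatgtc
YGNY, J4 end, 11 libraries: gctagaTATGGTAACTATgctatggactac
YDGY, J4 end, 11 libraries: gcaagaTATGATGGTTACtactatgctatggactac
YDYD, J3 end, 8 libraries: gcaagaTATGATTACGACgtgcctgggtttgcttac
YGYD, J2 end, 4 libraries: gcaagagggagtTATGGCTACGACggctac
In the first 4 the motif came directly after gcaaga or gctaga, and each of the 5 held at most 0.347% of the reads of any library. The YGNY sequence was one of 10 codings of its CDR3 and made up 46.6% of 208 nucleotide sequences, whereas the YSNY form made up 71.4% of 84.

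Of 22324 different Ighd2 CDR3s, 17.0% were found in 2 or more libraries, against 18.4% of 194013 other CDR3s, a difference that was not tested. With Control SMO replicates 4 and 8, Control SMO replicates 5 and 7 and LFPRLR SMO replicates 3, 4 and 5 each counted as 1, the shares were 12.8% and 13.8%. By motif it was 19.5% for YSNY, 17.8% for YGNY, 14.7% for YDGY and 12.8% for YDYD over all libraries, and 14.9%, 13.4%, 10.9% and 9.47% when counted in this way. The most shared YSNY CDR3 was then in 8 of 8, those of YGNY and YDGY in 7, that of YDYD in 6 and that of YGYD in 3. Both groups held 6.65% of Ighd2 CDR3s and 7.31% of the others. Depth and the sharing of abundant sequences between some libraries move with these shares, and their part in them was not tested.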

How the data were processed

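Splenic B-cell RNA of 12 libraries was amplified from a J558 V primer to the IgM constant region and sequenced on a MiSeq. The authors deposited, per library, tables of distinct nucleotide sequences and distinct translations with their raw read counts, not normalized. IMGT/HighV-QUEST and VDJtools are the named tools, the steps that merged and filtered reads are not given in the sources used here, and molecular identifiers were not described, so PCR copies and errors add to both counts.

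CDR3s were located in translations without a stop with Python 3.11.15 and NumPy 2.4.6, from a [YF][YF]C that ended at residue 16 to 30 to the last WG[QAT]GT. In each library 91.6% to 95.7% of these translations gave a CDR3. J1 was called from WGAGT or WGTGT, J2, J3 and J4 from the residue after WGQGT (T, L or S). The unit was the unique translation, and reading frames used unique nucleotide sequences with the commonest 12 bases of each motif. Groups followed the labels. Exact two-sided Mann–Whitney *U* tests used 924 arrangements and exact sign-flip tests 4096. P-values were adjusted by Benjamini-Hochberg over 193 motifs of 4 residues with a mean share of at least 0.5%, over these motifs and J segments, or over 4 J. edgeR 4.0.16 and DESeq2 1.42.0 (R 4.3.3) were run on the motif counts as alternatives, with the other alternatives listed in the closing section. Scripts were tested on simulated data.

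The motifs, gene names and lists were chosen with earlier results of these data known. Named were the 5 motifs, the CDR3 of each found in the most libraries, and fixed motifs of other D segments. Group p-values measure the spread between libraries, some of which share sequences. Floors were 3 counts.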

Additional observations from a re-analysis of the deposited data

Results flagged for a closer look

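In 36 groups of 6 libraries tested, 2 values stood apart from their group by Dixon's test, where chance alone marks about 1 group in 20. Both came from LFPRLR SMO replicate 6, the library with 55 Ighd2 CDR3s. J1 was used by 16.4% of its Ighd2 CDR3s, against 8.38% to 10.8% in the other 5 LFPRLR SMO libraries. The tyrosine-frame share of its in-frame cores was 100%, or 53 of 53 sequences, against 98.9% to 99.1% in the other 5. Its depth moves with both values, and its part in them was not tested.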

How the results depend on the processing

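The J1 difference between groups among Ighd2 CDR3s kept its direction under all 22 alternatives and lost its call under 16. It was 5.02 points weighted by reads (adjusted p = 0.0606), 0.664 with each CDR3 and J counted once (0.26), 2.65 with at least 2 reads (0.359), 2.11 with sharing libraries averaged (0.127), 1.95 when LFPRLR SMO replicate 6 was also left out (0.229) and 2.22 when LFPRLR SMO replicate 3 was averaged with 4 and 5 (0.229), all by exact tests. The averaged designs and the replicate block were too small for a single J to pass: its smallest adjusted p is 0.0635 with 4 against 5 and 0.114 with 4 against 4, and the smallest unadjusted p of 5 pairs is 0.0625. Leaving out 1 library gave 2.12 to 2.57 points. The family share passed only with at least 2 reads (-0.975 points), and was 0.000956 points with a tyrosine ahead of the motif.

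The J4 difference from other CDR3s was 4.06 points weighted by reads, 0.984 with at least 2 reads, 2.68 averaged and 3.17 averaged without LFPRLR SMO replicate 6, and the J3 difference was -5.16, -1.98 and -1.42 under the last 3, all short of the threshold. With LFPRLR SMO replicate 3 averaged in, a choice made after seeing the data, J4 was 2.56, J3 -1.90 and the read-share gap -0.628, none past it. The J2 difference passed with each CDR3 and J counted once (-1.65), and was 3.19 by reads and 4.88 with at least 2 reads. The J1 difference turned to -1.47 by reads, -0.723 with at least 2 reads and -0.136 averaged without LFPRLR SMO replicate 6, and ranged from -0.217 to 0.350 with 1 library left out (-0.104, -0.122, -0.217 and -0.0304 without LFPRLR SMO replicates 4, 5, 6 and 8). The read-share gap lost its call with unique nucleotide sequences (-0.528 points), at least 2 reads (-0.651), averaging (-0.709) and averaging without LFPRLR SMO replicate 6 (-0.726), and ranged from -0.959 to -0.612 with 1 library left out.

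Differences between groups that passed no test turned sign as follows: mean length to -0.0450 residues with CDR3s counted once and -0.0561 in means, YGNY to -0.0583 points by reads, YSNY to 0.156 in means and 0.0906 with LFPRLR SMO replicate 3 averaged in, J3 to 2.97 by reads and 0.480 with CDR3s counted once, and J2 to 0.0131 counted once, 1.14 averaged, 1.21 in means 0.472 averaged without LFPRLR SMO replicate 6 and 0.912 with replicate 3 averaged in. The cause was not tested. Libraries share replicate numbers only, with deviations correlated between -0.471 and 0.515 over 5 pairs. With the replicate number as a block the J1 difference was 1.98 points (adjusted p = 0.375, exact test), YGNY -0.206 points, YDGY -0.422 points and the tyrosine-frame share -0.00690 points. Depth limits LFPRLR SMO replicate 6, where 3 counts are 0.609% of CDR3s.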

Other observations

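Tyrosine-rich D peptides outside the Ighd2 rule were also abundant in these libraries, and both named here were chosen after their values were seen. YDGS was found in 7.85% ± 0.87 of CDR3s (mean ± SD, 12 libraries), whereas YGSS was found in 0.0595% ± 0.1030. YRYD was found in 0.733% ± 0.300 of CDR3s. SSGY of Ighd3-2 was found in 1.22% ± 0.36 and NWD of Ighd4-1 in 1.15% ± 0.16, each close to YDYD alone at 1.16% ± 0.22. TVVA, the hydrophobic reading of Ighd1-1, was found in 0.00686% ± 0.01689. Whether YGSS and TVVA are the peptides that Ighd1-1 encodes in this strain was not tested, so their shares do not measure the use of that gene.

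The Ighd2 share was set beside the 4 J segments and the motifs YGSS, TVVA, SSGY, NWD, MVTT, IVTT and MITT over the 12 libraries. The highest Spearman rho was that of J4, 0.48, then J1 with 0.34 and YGSS with 0.34, and the lowest was that of J3, -0.50. Without LFPRLR SMO replicate 6, J4, J1 and YGSS had 0.60, 0.15 and 0.16, IVTT also had 0.60, and the lowest was that of NWD, -0.69. These are descriptions over libraries that share a common total and some of their sequences.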
